A study of Mus musculus with 24 samples.

Results

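The 10 genes described here are members of the ADAM family (a disintegrin and metalloprotease) that are known to be expressed in male germ cells: *Adam1a*, *Adam1b*, *Adam2*, *Adam3*, *Adam5*, *Adam18*, *Adam24*, *Adam25*, *Adam29* and *Adam32*. They were chosen by symbol from the 24456 genes listed in every count table, and all 10 were found there. RNA was extracted from testes of wild-type (WT) mice and of mice homozygous for an *Atad2* knockout (KO) allele, killed at postnatal day 20, 22, 24 or 26. ATAD2 is a chromatin-bound ATPase with a bromodomain. In the KO allele a cassette with *lacZ* and a deleted exon leave a non-functional fusion of ATAD2 with lacZ wherever *Atad2* is expressed. The exon was deleted with a ubiquitously expressed Cre recombinase. Both genotypes were represented by 4 libraries at day 20, by 4 at day 22, by 2 at day 24 and by 2 at day 26, which gives 24 in all. Libraries are named by genotype, day and replicate, as in KO_d20_2.

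ADAM proteins are made with a signal peptide, a prodomain, a metalloprotease-like domain, a disintegrin domain and a transmembrane anchor. Only family members that keep the zinc-binding motif of the metalloprotease domain can cleave substrates. In the testis several members are made in spermatocytes or spermatids and reach the surface of the sperm head, and ADAM1 and ADAM2 form the heterodimers known as fertilin. ADAM3 on mature sperm is needed for passage into the oviduct and for binding to the zona pellucida, and its maturation requires chaperones of the endoplasmic reticulum, ADAM1A, ADAM2 and several other testis proteins. Testes between day 20 and day 26 cover the period in which the first wave of germ cells leaves meiosis and spermatids accumulate.

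The coding stretch of the zinc-binding motif is shown because it divides the family. The windows below are the 33-base stretches that code for the motif, or that align with it, in the reference annotation. They are written 5′ to 3′ on the coding strand, with capitals for the codons of the conserved residues (3 histidines, a glutamate and a glycine) where a gene encodes them.
Adam1a: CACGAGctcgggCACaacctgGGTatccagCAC
Adam1b: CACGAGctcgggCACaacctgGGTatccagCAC
Adam24: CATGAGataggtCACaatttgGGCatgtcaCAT
Adam25: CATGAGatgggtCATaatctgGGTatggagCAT
Adam29: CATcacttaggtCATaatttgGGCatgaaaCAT
Adam3: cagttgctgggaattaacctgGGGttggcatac
Adam5: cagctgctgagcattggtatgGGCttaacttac
*Adam1a*, *Adam1b*, *Adam24* and *Adam25* encode all 5 motif residues, *Adam29* encodes 4 of 5 and lacks the glutamate, and *Adam2*, *Adam3*, *Adam5*, *Adam18* and *Adam32* encode 1 of 5, the glycine.

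Gene structure divided the family in the same place. In GENCODE M21 on mm10, *Adam1a* (chr5:121518576-121545482), *Adam1b* (chr5:121500098-121503435), *Adam24* (chr8:40675077-40682199), *Adam25* (chr8:40752208-40756176) and *Adam29* (chr8:55870912-55906948) each have their coding sequence in 1 exon. *Adam2* (chr14:66027329-66077733) has 20 coding exons. *Adam18* (chr8:24602246-24674755), *Adam3* (chr8:24677225-24725852), *Adam5* (chr8:24727093-24824369) and *Adam32* (chr8:24836140-24948804) follow each other on the minus strand and have 19, 21, 21 and 22 coding exons. ADAM1A and ADAM1B, the alternative fertilin alpha subunits, are 72.5% identical in aligned protein sequence, ADAM24 and ADAM25 are 51.5% identical, and ADAM3 and ADAM18 are 39.9% identical.

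The similarity bears on the counts, since read pairs that aligned to more than 1 place were discarded. Of the 75-base windows of the *Adam1a* coding transcript, 29.7% also occur in *Adam1b* and 20.4% in *Gm42878*, and 31.1% of those of *Adam1b* occur in *Adam1a*. Of the *Adam25* windows, 20.1% occur in *Adam20* and 18.1% in *Adam39*. No window of the other 7 genes was shared. The levels of *Adam1a*, *Adam1b* and *Adam25* are therefore uncertain and can be too low.

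The assigned counts summed to between 10709667 and 19491935 per library, and all 10 genes passed the filter on low counts. *Atad2* itself lay between 76.1 and 171 CPM (counts relative to the TMM-scaled library total) in the WT libraries and between 30.8 and 53 CPM in the KO libraries, which did not overlap. The pachytene spermatocyte markers, 8 genes such as *Piwil1* and *Ldhc*, summed to at least 2511 CPM in every library. Library WT_d20_2 had the largest share of multiply aligned pairs, 13.7%, and calls of members that were lost without it are named below.

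Which of the 10 genes rose as WT testes matured was asked first. Between day 20 and day 26 all 10 rose, against 24.4% of all 17170 tested genes that were higher at day 26, and the size of the rise fell into a steep and a shallow class. *Adam1a*, *Adam24*, *Adam25* and *Adam29* rose over 20-fold. At day 20 *Adam24*, *Adam25* and *Adam29* were near or at the limit of detection in most WT libraries, while *Adam1a* had 25 to 45 counts in each. The other 6 were already abundant at day 20 and rose between 1.72-fold and 3.69-fold. The classes were drawn after the values were seen and were not tested.

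*Adam29* encodes a testis ADAM without the catalytic glutamate. Its level in the 4 WT libraries of day 20 was 0, 0, 0 and 0.216 CPM. At day 22 it was 7.46, 4.52, 3.03 and 2.76 CPM, at day 24 it was 38.7 and 23.2 CPM, and at day 26 it was 57.2 and 59.8 CPM. No WT library of one age overlapped with a library of another. At day 20 no WT library held more than 3 counts, so the rise to day 26 is a lower bound, at least 185-fold against a floor of 3 counts per library (adjusted p = 9.49e-07, edgeR's quasi-likelihood test).

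*Adam24*, which encodes a protease with the full motif, lay at 0.157, 0.632, 0.231 and 2.02 CPM in the WT libraries of day 20. It reached 22.6, 12.5, 18.3 and 12.4 CPM at day 22, 83.4 and 59.8 CPM at day 24, and 113 and 125 CPM at day 26. Its fitted rise from day 20 to day 26 was 7.29 ± 0.73 on the log2 scale (SE, adjusted p = 3.42e-07). WT_d20_4 was the highest of its group for *Adam24*, *Adam25* and *Adam29*.

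*Adam25*, a second single-exon gene with the full motif on chromosome 8, held 0.0786, 0.316, 0 and 0.72 CPM at day 20 and 34.1 and 37.2 CPM at day 26 in WT libraries, a fitted log2 rise of 7.03 ± 0.76 (SE, adjusted p = 6.21e-07). *Adam1a* lay at 3.38, 2.63, 2.31 and 3.24 CPM at day 20 and at 79.2 and 79.6 CPM at day 26, a rise of 4.78 ± 0.39 (SE, adjusted p = 5.05e-08). In neither gene did the ages overlap. Without WT_d20_4 the rise to day 26 was 8.53 in *Adam24* and 8.30 in *Adam25*.

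**Figure D1:**
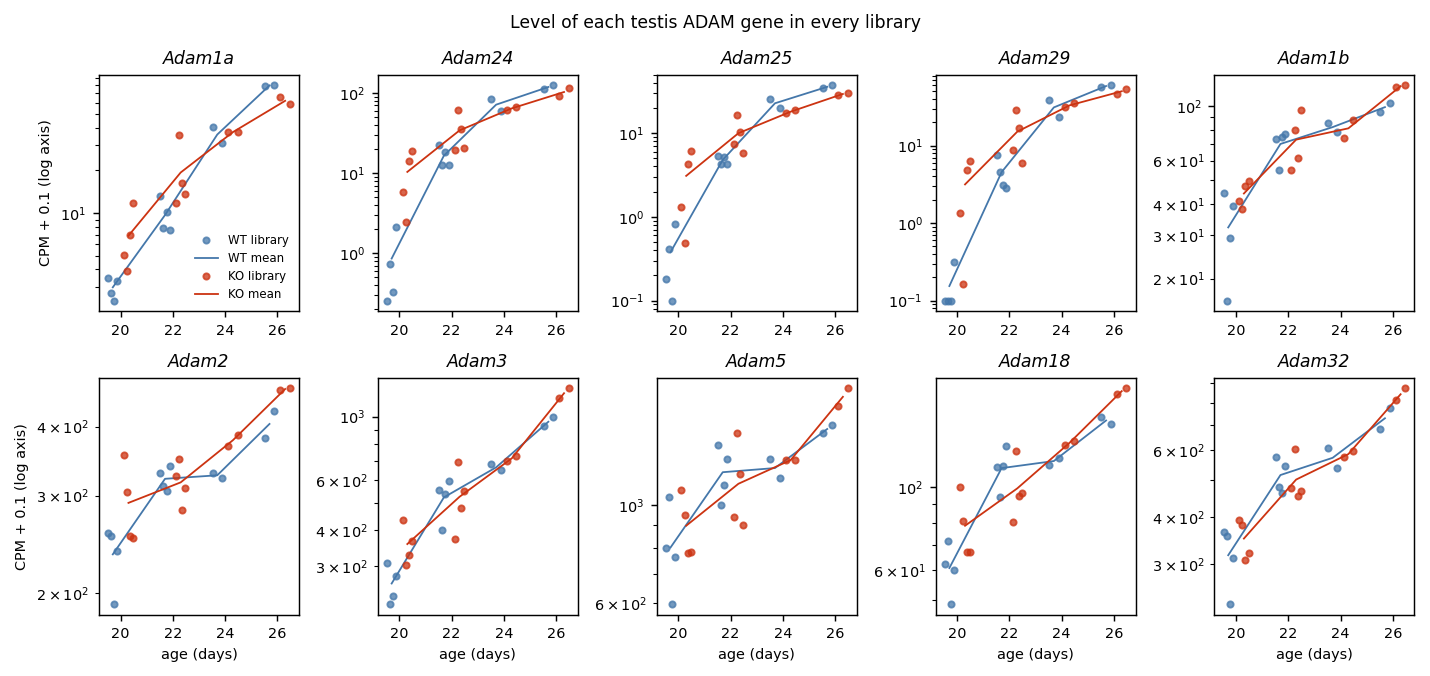
Level of each of the 10 genes (CPM + 0.1, log axis, range set for each panel) against age in days, with WT libraries in blue, KO libraries in red, and lines through the group means. The 4 steep genes start near the bottom of their panels in WT testes at day 20, and the KO means of that day lie above the WT means.

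Among the shallow genes, *Adam3*, required on sperm for migration into the oviduct, lay at 308, 221, 236 and 276 CPM in the WT libraries of day 20 and at 924 and 994 CPM at day 26, a log2 rise of 1.88 ± 0.19 (SE, adjusted p = 1.95e-07). *Adam5*, which in the mouse lies next to *Adam3*, lay at 800, 1042, 599 and 765 CPM at day 20 and at 1448 and 1513 CPM at day 26. Its rise was 0.89 ± 0.20 on the log2 scale (SE, adjusted p = 0.00109). *Adam2*, the fertilin beta subunit, had the smallest rise, 0.79 ± 0.14 (SE, adjusted p = 8.96e-05), from 191 to 257 CPM at day 20 to 382 and 427 CPM at day 26. *Adam1b*, *Adam18* and *Adam32* rose by 1.61 ± 0.25, 1.32 ± 0.17 and 1.20 ± 0.16 (SE).

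The pair *Adam1a* and *Adam1b* fell into different classes although their motif windows are identical. *Adam1b* was at 44.1, 16.2, 29.1 and 39.1 CPM in WT libraries at day 20 and at 94.4 and 103 CPM at day 26. The 150 bases before the RefSeq starts (GRCm38.p6) are shown because this pair differs in timing, and the table used held a promoter for 4 of the 10 genes. For *Adam1a* the annotations disagree, since GENCODE places the start of its longer transcript further upstream, and the window shown lies inside the GENCODE gene. Both lie on the minus strand and are written 5′ to 3′ along the gene, at chr5:121521696-121521845 for *Adam1a* and chr5:121503436-121503585 for *Adam1b*, with a MYB-type match in capitals.
Adam1a: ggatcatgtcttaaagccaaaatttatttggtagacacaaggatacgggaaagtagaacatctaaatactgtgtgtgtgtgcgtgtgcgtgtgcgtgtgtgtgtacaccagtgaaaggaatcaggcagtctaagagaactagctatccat
Adam1b: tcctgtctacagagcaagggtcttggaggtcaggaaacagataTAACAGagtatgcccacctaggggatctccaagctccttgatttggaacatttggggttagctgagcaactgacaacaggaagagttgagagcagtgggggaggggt
The MYB-type letters TAACNG, searched on both strands of the 250 bases before the start, were found in *Adam1b* and *Adam29* and not in *Adam1a* or *Adam25*, and 19.8% of 32851 promoter windows of that length hold them. The full cAMP response element TGACGTCA was in none of the 4 windows and in 1.55% of all.

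The rise was then followed in its steps, which are parts of the rise that defined the classes and no separate evidence for them. From day 20 to day 22 all 10 genes rose in WT testes, against 12.9% of tested genes. *Adam5* was not called without WT_d20_3, WT_d22_1 or WT_d22_4, and *Adam2* and *Adam5* were not called in a fit of these groups alone. From day 22 to day 24 the steep genes *Adam1a*, *Adam24*, *Adam25* and *Adam29* rose and the other 6 did not pass the test, against 5.88% of tested genes. The log2 rises in that step were 1.90 ± 0.36, 2.12 ± 0.57, 2.27 ± 0.56 and 2.82 ± 0.68 (SE, adjusted p = 0.00443, 0.0312, 0.0208 and 0.0181). Without WT_d24_1 none of the 4 passed the test, without WT_d22_2, WT_d22_3 or WT_d22_4 only *Adam1a* did, and without WT_d24_2 only *Adam1a* and *Adam29* did. The *Adam24* call was also lost without WT_d20_2, KO_d26_1 or KO_d26_2 and without the filter on low counts. DESeq2 called only *Adam1a* and *Adam25*. From day 24 to day 26 none of the 10 passed the adjusted test in edgeR's fit of all libraries or in DESeq2, against 0.274% of tested genes. In the fit of all libraries 2 (*Adam1a* and *Adam3*) had an unadjusted p under 0.05, against 8% of tested genes. An edgeR fit of these groups alone called 2 members.

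Levels of different genes were compared per kilobase of exon. In WT testes at day 26 *Adam5* was highest at 473 ± 14.7 CPM per kb (SD, n = 2), followed by *Adam3* at 326 ± 16.8, *Adam32* at 244 ± 22, *Adam2* at 150 ± 12 and *Adam18* at 64 ± 1.88. *Adam24* followed at 41.2 ± 2.91, *Adam1b* at 29.5 ± 1.73, *Adam29* at 21.4 ± 0.671, *Adam25* at 13.6 ± 0.856 and *Adam1a* at 10.6 ± 0.0351, and no neighbours in this order had overlapping libraries. The exon union of *Adam1a*, 7508 bases, includes a second transcript, and with the longest transcript (4783 bases) as length *Adam1a* lay at 16.6 CPM per kb and above *Adam25*. The places of *Adam1a*, *Adam1b* and *Adam25* are uncertain, since reads from their shared sequence were discarded and no correction was made. At day 20 *Adam5* again led, at 256 ± 58.3 CPM per kb (SD, n = 4), while *Adam32*, *Adam3* and *Adam2* overlapped with their neighbours at 106 ± 19.6, 88.4 ± 13.4 and 87.2 ± 11.2. The 4 steep genes took the last 4 places at day 20, and their libraries overlapped along that order.

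**Figure D2:**
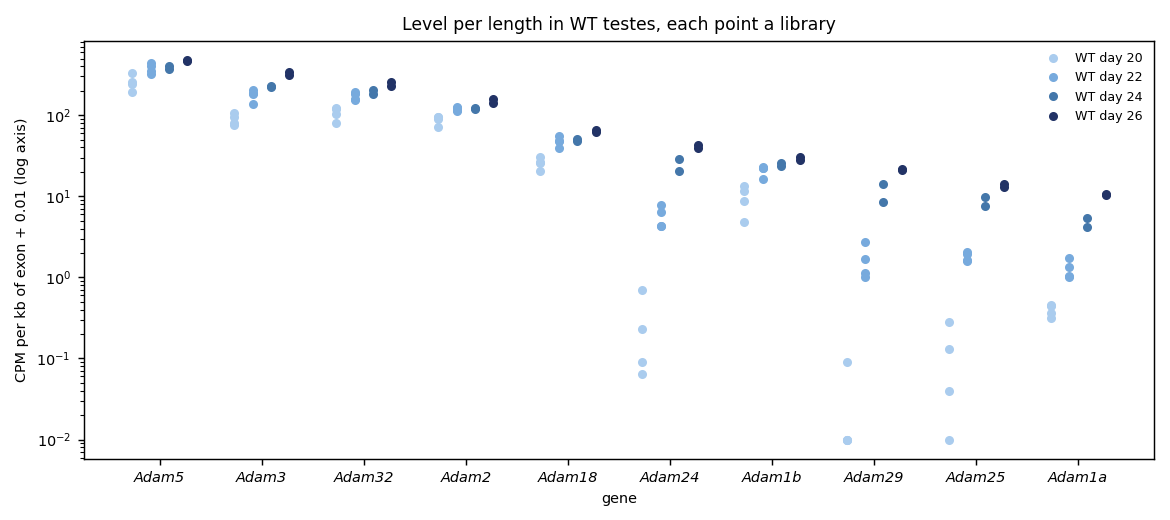
Level per kilobase of exon (CPM per kb + 0.01, log axis) of the 10 genes in each WT library, ordered by their mean at day 26 and coloured by age. *Adam5*, *Adam3*, *Adam32* and *Adam2* lie above 80 CPM per kb on average at every age, and the means of the steep genes climb from below 0.4 at day 20 to between 10.6 and 41.2 at day 26.

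The genotypes were then compared at each age. In bulk testis RNA, fewer or more cells of a type and less or more RNA per cell cannot be told apart. At day 20 *Adam24*, *Adam25* and *Adam29* were higher in KO testes, 3 of the 10 genes, against 2.98% of all tested genes. No member was lower. The median log2 fold change of the 10 was 0.46, and that of all tested genes was 0.01.

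The KO libraries of day 20 differed widely among themselves. *Adam24* lay at 5.66, 2.35, 14.3 and 18.8 CPM in KO_d20_1 to KO_d20_4, each above the highest WT value of 2.02 CPM. The fitted difference was 3.76 ± 0.69 on the log2 scale (SE, adjusted p = 0.00782). *Adam25* lay at 1.23, 0.392, 4.23 and 6.1 CPM, so that KO_d20_2 fell below WT_d20_4 and the groups overlapped, with a difference of 3.46 ± 0.78 (SE, adjusted p = 0.0182).

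*Adam29* lay at 1.23, 0.0654, 4.69 and 6.23 CPM in the KO libraries of day 20, and here too KO_d20_2 fell below WT_d20_4. The KO mean was 3.05 ± 2.89 CPM (SD, n = 4). For that mean the difference is at least 9.67-fold against the floor of 3 counts per library (edgeR adjusted p = 0.0188). The fitted log2 value of 5.57 depends on the prior count. *Adam1a* lay at 4.93, 3.79, 6.93 and 11.6 CPM, above all WT libraries, with a log2 difference of 1.24 ± 0.36 (SE) that did not pass edgeR's test (adjusted p = 0.0651), whereas DESeq2 called it together with *Adam24*, *Adam25* and *Adam29*, 4 members in all. *Adam1a* and *Adam24* were the only 2 of the 10 whose genotypes did not overlap at day 20, against 3.03% of tested genes with every KO library higher.

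The shallow genes differed less. The classes were drawn with the same WT libraries of day 20, so this contrast is no separate evidence for them. The fitted log2 differences of the shallow genes at day 20 ran from 0.15 ± 0.13 (SE) in *Adam32* to 0.46 ± 0.16 in *Adam3*, all above 0 and none past the test. With an unadjusted p under 0.05, 8 of the 10 members differed at day 20, against 12.5% of tested genes, and *Adam1b*, *Adam2*, *Adam3* and *Adam18* of the shallow genes were among them. *Adam3* lay at 436, 301, 328 and 366 CPM in KO libraries, which overlapped with the WT range of 221 to 308 CPM.

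The calls at day 20 depended on single libraries. Without WT_d20_1, WT_d20_2, WT_d20_3, KO_d20_3 or KO_d20_4, *Adam24* was the only member past the test. In a fit of the day 20 libraries alone none passed. The sizes moved as well. Without WT_d20_4 the log2 difference was 5.05 in *Adam24* and 4.77 in *Adam25*, and without KO_d20_4 that of *Adam25* was 2.85.

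**Figure D3:**
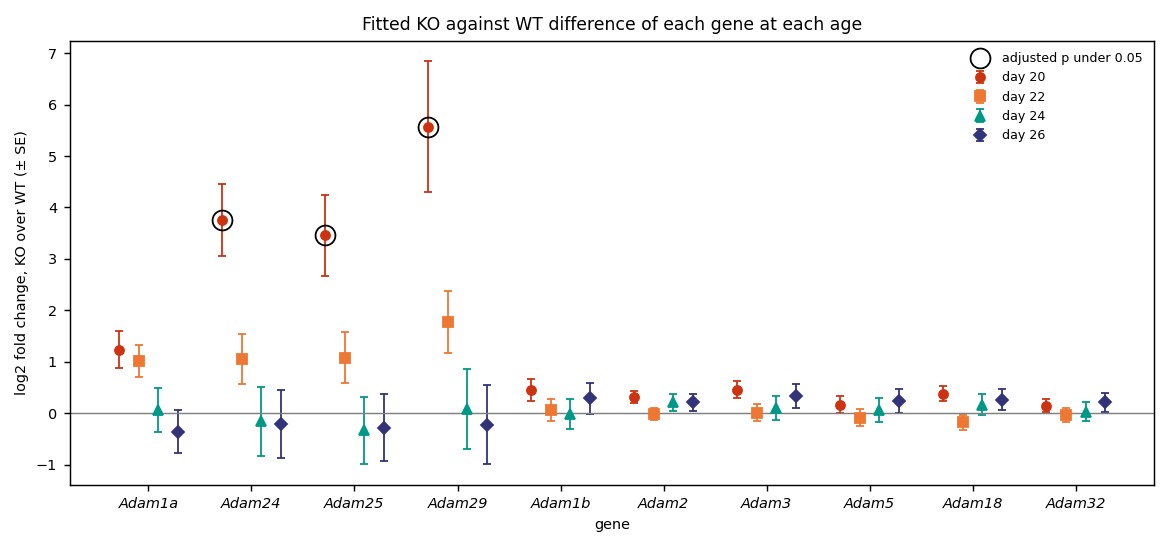
Fitted log2 fold change of KO over WT (± SE) for each gene at days 20, 22, 24 and 26, with black rings where the adjusted p is under 0.05. The rings stand on *Adam24*, *Adam25* and *Adam29* at day 20, and the points of the steep genes lie lower at each of days 22 and 24 than at day 20.

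At day 22 none of the 10 passed the test, against 2.51% of tested genes in either direction. Of the members, 4 had an unadjusted p under 0.05, all steep and all higher in KO, against 14.6% of tested genes at that threshold, and DESeq2 called 1, *Adam1a*. *Adam29* lay at 8.71, 28.8, 16.7 and 5.83 CPM in the KO libraries against 2.76 to 7.46 CPM in the WT libraries, a log2 difference of 1.77 ± 0.60 (SE, adjusted p = 0.137). KO_d22_2 was the highest KO library for all 4 steep genes, with 35.5 CPM of *Adam1a*, 61 of *Adam24* and 16.4 of *Adam25*. *Adam25*, at 7.32, 16.4, 10.2 and 5.63 CPM, was the only member with every KO library above every WT library (4.18 to 5.28 CPM), against 3.64% of tested genes. The shallow genes had log2 differences between -0.18 and 0.06.

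At day 24 none of the 10 passed the test and none had an unadjusted p under 0.05, and DESeq2 called none, against 0.0874% of tested genes called by edgeR. *Adam2*, *Adam3* and *Adam18* lay higher in both KO libraries than in both WT libraries, against 22.6% of tested genes, and *Adam25* lay lower, against 21.4%. At day 26 none passed either, with no unadjusted p under 0.05 and no call by DESeq2, against 0.0466% of tested genes. All 6 shallow genes lay higher in both KO libraries than in both WT libraries at day 26, against 27.8% of tested genes, and *Adam1a*, *Adam25* and *Adam29* lay lower, against 31.1%. *Adam3* was at 1160 and 1254 CPM in KO and 924 and 994 CPM in WT libraries. *Adam1a* was at 65.4 and 58.3 CPM in KO and 79.2 and 79.6 CPM in WT libraries. No marker of any list passed the test at that age. The scores (mean centred log2 level) of the pachytene and elongating spermatid lists, higher in KO, did not overlap between genotypes. Nor did those of the peritubular, endothelial, spermatogonia, Sertoli and macrophage lists, lower in KO. With 2 libraries a genotype, 27.8% of single tested genes also lay higher and 31.1% lower without overlap. The summed Sertoli level went the other way, 1242 to 1252 CPM in KO and 1015 to 1172 CPM in WT libraries. The pachytene score was 0.64 and 0.71 in KO against 0.28 and 0.4 in WT libraries, and the peritubular score -0.62 and -0.84 against -0.09 and -0.36. The endothelial score was -0.6 and -0.51 against -0.11 and -0.07, and the spermatogonia score -0.4 and -0.37 against -0.25 and -0.21. The round spermatid minus pachytene score was 2.02 and 2.04 in KO libraries and 2.42 in both WT libraries. The part of these differences in the pattern was not tested. With 2 libraries a genotype the gene levels are values without a call, and a fit of the day 26 libraries alone called both *Adam1a* and *Adam3*.

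Over the mean of the 4 days, *Adam24* (log2 difference 1.11 ± 0.32, SE, adjusted p = 0.0447) and *Adam29* (adjusted p = 0.0316) were higher in KO, 2 of the 10 against 3.52% of tested genes. No size is given for *Adam29*, whose day 20 value enters the mean and depends on the prior count. The *Adam24* call was lost in 18 of the 24 fits that left out 1 library and the *Adam29* call in 10. Leaving out WT_d20_2, WT_d20_3, WT_d22_4, WT_d24_2 or any KO library of day 24 or library of day 26 removed both. Whether the KO difference changed between days was tested for each gene, and none of the 10 passed, against 0.00582% of tested genes. The 4 steep genes had an unadjusted p under 0.05 in that test, against 9.06% of tested genes, and DESeq2 called *Adam24* and *Adam29*.

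Within KO testes all 10 genes rose from day 20 to day 26, against 27.2% of tested genes. The rises of the steep genes were 3.18 ± 0.37 in *Adam1a*, 3.32 ± 0.58 in *Adam24*, 3.29 ± 0.58 in *Adam25* and 4.03 ± 0.70 in *Adam29* (log2, SE). With 1 library left out they ran from 2.98 to 3.56, 2.99 to 3.79, 2.92 to 3.90 and 3.62 to 4.64 in that order. The day 20 levels of *Adam24* in KO testes, a mean of 10.3 ± 7.61 CPM (SD, n = 4), lay beside 0.759 ± 0.863 CPM in WT testes of that day and 16.5 ± 4.92 CPM in WT testes of day 22 (both SD, n = 4).

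Spermatid markers moved with the steep genes. Of 8 round spermatid markers, 7 were higher in KO at day 20, and of 8 elongating spermatid markers 4 were, against 2.98% of tested genes. The round spermatid markers summed to between 4.21 and 13.8 CPM in the WT libraries and between 11.6 and 102 CPM in the KO libraries of day 20, and no marker of the list was at 0 throughout a group. Of 8 pachytene markers 1 was higher, and no marker of spermatogonia, early meiosis, Sertoli, Leydig or peritubular cells, macrophages, endothelium, blood or epididymis passed the test at that age. The epididymis markers summed to between 2.84 and 278 CPM in WT and between 3.86 and 54.7 CPM in KO libraries. At day 22, 4 of the elongating and 1 of the round spermatid markers were higher, and 1 of 4 endothelial markers was lower. Of all tested genes 2.51% were called at day 22 in either direction. Over the mean of the days all 8 elongating and 5 of the 8 round spermatid markers were higher, against 3.52% of tested genes. So was 1 marker each of early meiosis and Leydig cells. Lower were 2 of 5 peritubular, 2 of 4 endothelial and 1 of 5 macrophage markers. The 3 haemoglobin genes of the blood list were at 0 in every group.

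The mean log2 level of the round spermatid markers minus that of the pachytene markers, each centred over all libraries, ordered the libraries of day 20 in nearly the same way as the steep genes. It was -3.57, -3.3, -3.55 and -2.34 in the WT libraries and -1.56, -2.64, -0.32 and 0.4 in the KO libraries. KO_d20_2 had the lowest score and the lowest steep levels of the KO libraries, and WT_d20_4 the highest score of the WT libraries. At day 22 KO_d22_2 had the highest score, 1.54, against -0.6 to -0.25 in WT libraries. With this score as a covariate none of the 10 genes passed the test at any age or over the mean of the days, and the log2 difference at day 20 was 1.16 in *Adam24*, 0.60 in *Adam25* and -0.19 in *Adam1a*. That of *Adam29* stayed above 0, with a size that depends on the prior count. The part of cell composition in the genotype difference was not tested, and the genes of the score themselves differed between genotypes at day 20.

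**Figure D4:**
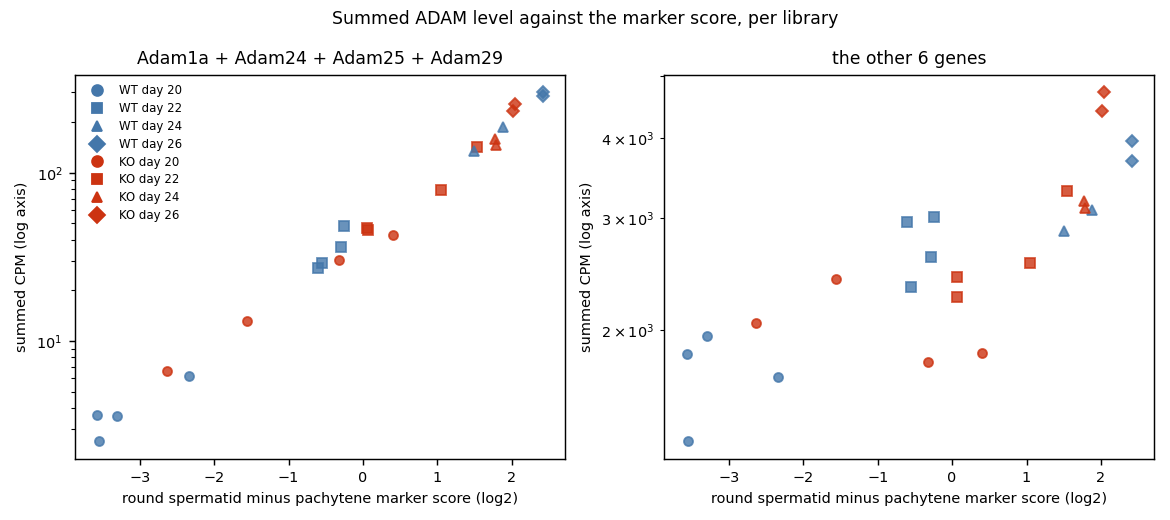
Summed CPM (log axis) of the 4 steep genes (left) and of the other 6 (right) in each library, against the round spermatid minus pachytene marker score in log2 units, with colour for genotype and marker shape for age. The steep sum spans 2.54 to 302 CPM and the sum of the other 6 spans 1340 to 4726 CPM.

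Over the 24 libraries, which share age and genotype, Pearson's r of the log2 levels ran from 0.931 to 0.991 within the steep genes, from 0.713 to 0.960 within the other 6 and from 0.745 to 0.936 between the classes, so that the ranges overlapped. These are descriptions of the same levels from which the classes were drawn. The non-members most like the mean of the 10 were *Gtsf1l* (r = 0.996), *4430402I18Rik*, *Galntl5*, *Lpcat2b* and *Fbxl13* (r = 0.995 each). That mean was taken of unscaled log2 levels, so the steep genes, which varied most, weighed most in it. The gene most like *Adam24* was *Catsper3* (r = 0.997), which codes for a subunit of the sperm calcium channel and is also one of the round spermatid markers, and that most like *Adam29* was *Dsg1a* (r = 0.997). *Adam3* was most like *Bag5* (r = 0.985), *Adam5* like *Gstm5* (r = 0.982) and *Adam2* like *Sccpdh* (r = 0.972). The closest genes to the others were *BC049762* to *Adam1a* (0.992), *Ubxn10* to *Adam1b* (0.989), *Abca15* to *Adam18* (0.973), *1700007K09Rik* to *Adam25* (0.997) and *Usp1* to *Adam32* (0.979).

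The wider ADAM family was described from lists. No alternative fits are given for the list genes here or below. Of 13 other ADAM genes of the reproductive tract, 11 were tested, and *Adam28* and *Adamdec1* were too low. At day 20, 5 of the 11 were higher in KO, against 2.98% of tested genes, and none was lower. These were *Adam20* (log2 3.80), *Adam39* (3.58), *Adam26a* (3.45), *Adam34* (3.05) and *Adam26b* (3.03). WT libraries of that day held at most 6 counts of *Adam34*, 11 of *Adam39*, 14 of *Adam20*, 15 of *Adam26b* and 19 of *Adam26a*. All 5 have a single coding exon on chromosome 8, and *Adam20* and *Adam39* share sequence with *Adam25*. At day 22 *Adam6a* (3.25) and *Adam6b* (3.19) were higher, and over the mean of the days *Adam34*, *Adam6a* and *Adam6b* were. In WT testes 10 of the 11 rose from day 20 to day 26, against 24.4% of tested genes. *Adam7*, also an epididymis marker, did not pass the test and differed widely between WT libraries, 32.8 ± 46.4 CPM (SD, n = 2) at day 26. *Adam6b* had no count in any WT library of day 20, and its rise to day 26 is at least 154-fold. The median log2 difference of the 11 at day 20 was 3.05, or 2.21 with *Adam6a* and *Adam6b* set to their lower bounds because WT libraries were at the floor, beside 0.46 for the 10 members and 0.01 for all tested genes.

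Of 11 broadly expressed ADAM genes, which include the shedding proteases *Adam10* and *Adam17*, *Adam22* was lower in KO at day 20 (log2 -0.64, adjusted p = 0.0189) and none was higher. Over the mean of the days *Adam10* (-0.25) and *Adam19* (-0.46) were lower. In WT testes *Adam17* (-0.56) and *Adam10* (-0.46) fell from day 20 to day 26 and *Adam11* (0.84) rose.

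Genes for proteins linked to ADAM3 maturation also rose by very different amounts with age. Of 15 genes in this list, 10 rose in WT testes from day 20 to day 26, against 24.4% of tested genes. *Ly6k* (-0.84) and *Tex101* (-0.98) fell. *Clgn*, which codes for the chaperone calmegin, rose by 0.72 on the log2 scale, while *Pdilt*, a disulphide isomerase-like protein of spermatids, rose by 7.43, *Pmis2* by 5.40 and *Calr3*, calsperin, by 4.29. *Prss37* and *Prss55*, serine protease genes, were at 2 counts or fewer in every WT library of day 20 and rose at least 243-fold and at least 117-fold.

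Of the same 15 genes, *Pdilt* (log2 3.37, adjusted p = 0.0158) alone was higher in KO at day 20. At day 22 *Calr3* (1.82), *Pmis2* (1.81), *Prss37* and *Prss55* (3.85) were higher, *Prss37* by at least 23-fold against WT libraries with 3 counts or fewer. Over the mean of the days *Calr3* (0.91) was higher, as were *Prss37* and *Prss55*, whose sizes depend on the prior count, and none was lower at any age.

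Of 12 genes for sperm surface and acrosome binding proteins, 6 were higher in KO at day 20, against 2.98% of tested genes, and none was lower. These were the hyaluronidase genes *Hyal5* (log2 4.35) and *Spam1* (3.74), *Spaca3* (3.84), *Zp3r* (3.51), *Izumo1* (2.37), which codes for the sperm ligand of the egg receptor JUNO, and *Spaca1* (1.97). *Izumo1* and *Spaca1* are also among the round spermatid markers. At day 20 WT libraries held at most 11 counts of *Spaca3* or *Izumo1*, 13 of *Hyal5*, 19 of *Zp3r* or 27 of *Spam1*. None of the 12 passed the test at days 22, 24 or 26, and over the mean of the days *Hyal5*, *Izumo1*, *Spaca3* and *Zp3r* were higher. In WT testes 11 of the 12 rose from day 20 to day 26, against 24.4% of tested genes, and *Tex101* fell.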

How the data were processed

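Total RNA of mouse testes was sequenced as stranded, ribosome-depleted read pairs. Each deposited table holds raw gene counts, which the authors made by aligning to mm10 with STAR 2.7.11b and counting exonic pairs by strand with HTSeq, discarding multiply aligned pairs. The gene model version was not given in the sources used here. The labels list 4 replicates at day 20 where the study's text gives fewer, and all libraries were used. The study calls the replicates biological, but the labels name no animals, so p-values measure only the spread between these samples.

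Counts were scaled by TMM and edgeR 4.0.16 (R 4.3.3) was used for quasi-likelihood tests in a fit of all 24 libraries with 1 coefficient per group, after filterByExpr at a minimum count of 10. Values were adjusted by Benjamini-Hochberg over 17170 genes and called at 0.05. The tallies of unassigned pairs (no feature, 45.1% to 58.5%) were left out. Alternatives were RLE scaling, no filter, the compared groups alone, a replicate block, a marker score covariate, DESeq2 1.42.0 and leaving out each library. Proteins were aligned with MAFFT 7.526. The script was tested on simulated data. Floors of 3 counts cover counting error only. The members and lists were chosen with earlier results of these data known. All 10 members were named, with up to 4 rising and 4 falling genes of a list by fold change, and further list genes were named after their values were seen.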

Additional observations from a re-analysis of the deposited data

Results flagged for a closer look

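Among 40 combinations of a gene and a group of 4 libraries, 3 had a library far from the others by Dixon's test, and chance flags about 1 in 20 such groups. *Adam1b* was low in WT_d22_2, at 55.1 CPM against 73.5 to 76.7 CPM in the other libraries of that group. *Adam29* was detected in WT_d20_4 alone of its group, at 0.216 CPM from 3 counts against 0, and with the other values tied at 0 any detection would have met the test. *Adam32* was high in KO_d22_2, at 606 CPM against 455 to 478 CPM, and this library also had the highest round spermatid score of its group.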

How the results depend on the processing

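Of the counts of members called, all 10 rising between days 20 and 26 stayed at 10 in both genotypes under every alternative run. At day 20 the KO against WT count of 3 fell to 0 with the day 20 groups alone and to 0 with the marker score as covariate, was 4 with DESeq2 (*Adam1a* added), and ranged from 1 to 4 with 1 library left out. In the WT step from day 20 to day 22 the count of 10 was 8 with the groups alone and 9 to 10 with 1 library left out. At day 22 the KO against WT count of 0 became 1 with the replicate block (*Adam29*) and 1 with DESeq2 (*Adam1a*), and 0 to 1 with 1 library left out. At day 26 it became 2 with the groups alone. Over the mean of the days 2 became 1 without the filter on low counts and 0 with the score, and ranged from 0 to 3 with 1 library left out. The test of a difference between days gave 2 with DESeq2 and 0 to 2 with 1 library left out. In WT testes the step from day 22 to day 24 gave 2 with the replicate block and 2 with DESeq2 in place of 4, and 0 to 4 with 1 library left out, and the step from day 24 to day 26 gave 2 with the groups alone in place of 0. The causes of these changes were not tested. The fits of the compared groups alone held fewer libraries, and the part of that was not tested either.

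Same-numbered WT and KO libraries of a day deviated together with correlations from -0.459 to 0.416 in 12 pairs, 7 of them over 0.1. All 4 pairs of day 22 were below 0, and at days 24 and 26 both pairs of a day share 1 value by construction. Since not every pair was over 0.1 and the labels name no shared animal or batch, the numbers were not taken to pair the samples, and not every library of days 20 and 22 correlated best with its own number. The replicate block left the day 20 count at 3, moved that over the mean of the days from 2 to 3 (*Adam25* added), and left *Adam1a* and *Adam25* called in the WT step from day 22 to day 24.

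With the score as covariate, log2 differences changed sign for *Adam1a* at day 20 (-0.193) and over the mean of the days (-0.0136), for *Adam1b* (-0.0609), *Adam2* (0.0605), *Adam3* (-0.114), *Adam24* (-0.290), *Adam25* (-0.297) and *Adam29* (-0.0816) at day 22, for *Adam29* at day 24 (-0.00197), and for *Adam24* (0.217), *Adam25* (0.164) and *Adam29* (0.351) at day 26. Small differences at day 22 changed sign without the filter in *Adam2* (0.029) and *Adam32* (0.0104), with the block in *Adam3* (-0.0163), and in *Adam2* with RLE scaling (0.000243) and with DESeq2 (0.000235). In the WT step from day 22 to day 24 the block reversed *Adam2* (-0.0856), *Adam5* (-0.0992) and *Adam18* (-0.0218). With 1 library left out the day 22 differences ranged from -0.101 to 0.172 in *Adam1b*, -0.072 to 0.0302 in *Adam2*, -0.158 to 0.139 in *Adam3*, -0.238 to 0.00618 in *Adam5* and -0.142 to 0.0391 in *Adam32*, and those of day 24 from -0.0995 to 0.253 in *Adam1a*, -0.144 to 0.0996 in *Adam1b*, -0.358 to 0.108 in *Adam24*, -0.217 to 0.509 in *Adam29* and -0.0351 to 0.122 in *Adam32*. In the WT step from day 22 to day 24 the ranges were -0.0294 to 0.0473 in *Adam2*, -0.0795 to 0.104 in *Adam5* and -0.0481 to 0.136 in *Adam18*. None of these reversed values belonged to a called gene and comparison. Depth limits the steep genes at day 20, where *Adam29* and *Adam25* rest on 0 to 10 counts per WT library.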
